A study of Mus musculus with 3 samples.

Results

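The genes described here are the heat shock proteins and chaperones, taken by symbol: HSP70 and HSP110 (Hspa, Hsph), HSP90 (Hsp90), HSP60 and HSP10 (Hspd, Hspe), the Hspb-named genes, the J proteins (Dnaja, Dnajb, Dnajc) and the CCT chaperonin (Cct followed by a digit). Of 18193 genes with a probe set of a single symbol, 81 matched, through 200 probe sets, and of the probe sets of a gene the one with the highest mean signal stands for it. The populations were splenic CD4 T cells and splenic B220 B cells from C57BL/6 mice aged 6 to 8 weeks, each purified with magnetic beads to over 98% per the labels, and B6N-22 embryonic stem (ES) cells, also C57BL/6, grown with leukemia inhibitory factor on fibroblast feeders treated with mitomycin C. No genotype change or drug treatment of the profiled cells is given in the labels, and how many mice were behind each lymphocyte array they do not state. Each population had 1 array, so the values below carry no replicate error and were not tested. That number of arrays sets the limit of their precision.

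Chaperones bind unfolded or partly folded proteins and keep them from aggregating. HSP70 binds short hydrophobic stretches in a cycle driven by ATP, J proteins start that cycle, and exchange factors such as the HSP110 proteins end it by releasing ADP. HSP90 acts later on kinases and receptors, the ring-shaped chaperonins enclose their clients (actin and tubulin in the case of CCT), and small heat shock proteins hold clients without ATP. Heat shock factors raise many of these genes in stressed cells by binding repeats of the letters GAA in alternating orientation, while unfolded proteins in the endoplasmic reticulum (ER) raise its own set of chaperones through a different element.

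The promoter stretches shown here are a selection from the members that hold a heat shock or ER stress element and whose signals are described below. Others with the shorter heat shock form, such as Dnaja1, Dnaja4, Cct2 and Cct5, are not printed. By the probe sets used, every heat shock promoter printed is from a gene lower in lymphocytes. Dnaja4 was higher in T cells than in ES cells. A relation of these letters to the signals was not tested. All are from RefSeq on build GRCm38.p6, 150 bases long, read 5′ to 3′ on the strand of the gene and ending at the base before the annotated start. Hspe1, for mitochondrial HSP10, lies at chr1:55087998-55088147 on the plus strand. Capitals mark every base that falls in a match to the longer heat shock form, 3 alternating GAA and TTC units with 2 bases between neighbours, for Hspe1 and for the J protein gene Dnajb6 (chr5:29735748-29735897, plus strand). Dnajb6 has 1 such match of 13 bases, and Hspe1 has 2 overlapping matches that together cover 18 bases, or 4 alternating units.
Hspe1: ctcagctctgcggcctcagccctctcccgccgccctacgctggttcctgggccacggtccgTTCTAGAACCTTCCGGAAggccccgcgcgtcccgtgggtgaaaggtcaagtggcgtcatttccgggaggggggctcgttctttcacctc
Dnajb6: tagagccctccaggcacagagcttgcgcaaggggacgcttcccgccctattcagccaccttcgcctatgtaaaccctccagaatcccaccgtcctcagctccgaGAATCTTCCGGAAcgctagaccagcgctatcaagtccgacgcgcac
The capitals in Hspb1, a small heat shock gene (chr5:135887769-135887918, plus strand), and in Hspa1b, a stress-inducible HSP70 gene (chr17:34959239-34959388, minus strand), mark the shorter form of 2 such units, a GAA and a TTC in either order with 2 bases between them.
Hspb1: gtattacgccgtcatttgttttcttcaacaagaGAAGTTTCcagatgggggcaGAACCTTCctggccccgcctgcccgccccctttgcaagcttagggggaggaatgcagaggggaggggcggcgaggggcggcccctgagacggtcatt
Hspa1b: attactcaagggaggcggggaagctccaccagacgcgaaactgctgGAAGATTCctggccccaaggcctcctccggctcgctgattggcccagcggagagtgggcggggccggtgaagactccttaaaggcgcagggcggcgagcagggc
For the ER members Hspa5 (chr2:34771940-34772089, plus strand), Hsp90b1 (chr10:86705445-86705594, minus strand) and Dnajc3 (chr14:118937782-118937931, plus strand), capitals mark the ER stress response element, CCAAT and CCACG with 9 bases between them, or its reverse complement, CGTGG and ATTGG.
Hspa5: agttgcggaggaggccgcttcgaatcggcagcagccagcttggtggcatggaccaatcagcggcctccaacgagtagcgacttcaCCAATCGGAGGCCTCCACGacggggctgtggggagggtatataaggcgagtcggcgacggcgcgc
Hsp90b1: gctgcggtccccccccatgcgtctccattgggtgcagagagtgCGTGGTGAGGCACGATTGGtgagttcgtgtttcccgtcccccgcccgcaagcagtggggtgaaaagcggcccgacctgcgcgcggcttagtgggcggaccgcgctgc
Dnajc3: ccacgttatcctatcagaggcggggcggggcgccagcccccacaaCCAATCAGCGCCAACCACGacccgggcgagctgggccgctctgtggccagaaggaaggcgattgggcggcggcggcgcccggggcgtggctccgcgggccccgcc

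Over the windows of 250 bases before to 50 after each start, 68 members were present in the promoter table, and both strands were searched. The longer heat shock form was found for 4 of the 68 members (5.88%), namely Hspd1, Hspe1, Hsph1 and Dnajb6, against 0.662% of 27025 genes. The shorter form, part of every longer one, was found for 20 of 68 (29.4%), against 17% of genes. The ER stress response element was found for the 3 members shown, 4.41% of the 68, against 0.137% of genes. Hspd1 and Hspe1, the HSP60 and HSP10 genes, are neighbours that run away from each other. The nearer annotated start of Hspd1 lies 216 bases from that of Hspe1, and the capitals shown for Hspe1 are the same bases that give the match of Hspd1 on the other strand. In Hsph1 the longer form lies after the annotated start and is not printed. A match describes letters and not a bound site.

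The detection level used below is a signal of 95, the 50th percentile of all deposited values. Signals under it were set to it ahead of the log2 step, which makes a fold against such an array a minimum, written "at least". Calling a member took a difference of 4-fold or more with the brighter array over the detection level. On all 3 arrays, 60 of the 81 members were above it, 10 on 1 or 2 arrays and 11 on none. Those below on all arrays were Cct6b, Cct8l1, Dnajb3, Dnajb7, Dnajc5b, Dnajc5g, Hspa1l, Hspa12b, Hspb3, Hspb7 and Hspb9, several of them known for expression in testis or muscle. Between 2 probe sets of 1 gene, the log2 differences had an SD of 0.62 per probe set in T cells minus ES cells, 0.60 in B cells minus ES cells and 0.35 in T cells minus B cells. This spread covers probes and not animals or cultures.

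The labels were set against defining markers. Pou5f1, Nanog, Sox2, Dppa5a and Zfp42 had signals from 1490 to 46811 in ES cells and at most 69.0 in either lymphocyte population. All 5 T cell markers were above the detection level of 95 in T cells (834 to 17144), 3 of them also in B cells, and 0 in ES cells. They summed to 44286 in T cells, 742 in B cells and 115 in ES cells. The 4 B cell markers with a probe set were above it in B cells (584 to 32919), 3 of them also in T cells (Ms4a1 at 2202, Cd79b at 1096 and Cd79a at 197), and 0 in ES cells. They summed to 3581 in T cells, 69604 in B cells and 243 in ES cells. Markers of other cells also moved with the populations. The 7 fibroblast markers summed to 7569 in T cells (7185 of it from Thy1, which T cells express), 636 in B cells and 63661 in ES cells. The 6 macrophage markers summed to 47733 in T cells, 19896 in B cells and 3696 in ES cells, the 3 neutrophil markers to 13500, 6511 and 116, the 5 NK and cytotoxic markers to 7212, 3813 and 131, the 3 erythroid markers to 369, 276 and 68.5, and the 4 cell cycle genes to 4027, 4724 and 25996. No marker was at exactly 0 on any array. The part of feeder cells, myeloid cells, the other lymphocyte type or dividing cells in the differences below was not tested. In bulk RNA, fewer cells of a type and less RNA per cell cannot be told apart.

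In both lymphocyte populations the chaperones assigned to the cytosol and nucleus or to mitochondria were mostly lower than in ES cells. Several J proteins of the ER were higher. Members assigned no site were mixed, with 6 higher and 10 lower in T cells and 9 higher and 8 lower in B cells. Their median log2 differences from ES cells were -0.38 in T cells and 0.03 in B cells, against -0.11 and -0.07 for all genes measured. Between T cells and ES cells, 69 of the 81 members were measured, that is, above the detection level on at least 1 of the arrays, 5 of them on 1 array only. Their median log2 difference was -0.63, against -0.11 for all 12325 measured genes, and over members above the level on both arrays it was -0.63, against -0.06 for all such genes. The 4-fold rule called 9 members lower (13.0%), where 10.2% of all measured genes were lower, and 3 higher (4.35%), where 10.8% of genes were. The share lower is near that of all genes, so at 4-fold the members do not stand out in that direction. At 2-fold, 24 members were lower (34.8%, against 24.7% of genes) and 10 higher (14.5%, against 22.7%).

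B cells against ES cells shares the ES cell array with the comparison above and is not an independent repeat of it. Of 70 measured members, 9 of them above the detection level on 1 array only, the median log2 difference was -0.64, against -0.07 for all 12463 measured genes. At 4-fold, 9 members were lower (12.9%, against 10.3% of genes) and 1 was higher (1.43%, against 9.85%). At 2-fold, 26 were lower (37.1%, against 24.6%) and 6 higher (8.57%, against 21.1%). Between T cells and B cells most members lay close together. The median was -0.02 over 67 measured members and -0.05 over all 11194 measured genes, 61 members lay within 2-fold (91.0%, against 84.8% of genes), 1 was called higher (1.49%, against 2.49%) and 0 lower (against 1.85%). At 2-fold, 6 were higher in T cells (8.96%, against 8.89%), namely Dnaja4, Dnajb13, Dnajc1, Dnajc15, Dnajc6 and Hspa1b, and 0 lower (against 6.32%).

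Taking the 3 arrays at once, ES cells lay at least 4-fold above both lymphocyte arrays for 7 of the 70 members above the detection level on any array (10%, against 8.27% of 12776 genes). These were Hspa1b, Hspa9, Hspb1, Hspb8, Hspbap1, Hspd1 and Hsph1. They lay at least 4-fold below both for Dnajb9 alone (1.4%, against 7.11% of genes). How the arrays are scaled to each other moves all genes: with a common 75th percentile the median over all genes became -0.42 in T cells and -0.37 in B cells, each minus ES cells, and 0 members were called higher in any comparison. Relative to that median over all genes, the member medians were then -0.58 and -0.64, beside -0.52 and -0.57 with the deposited scaling.

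**Figure D1:**
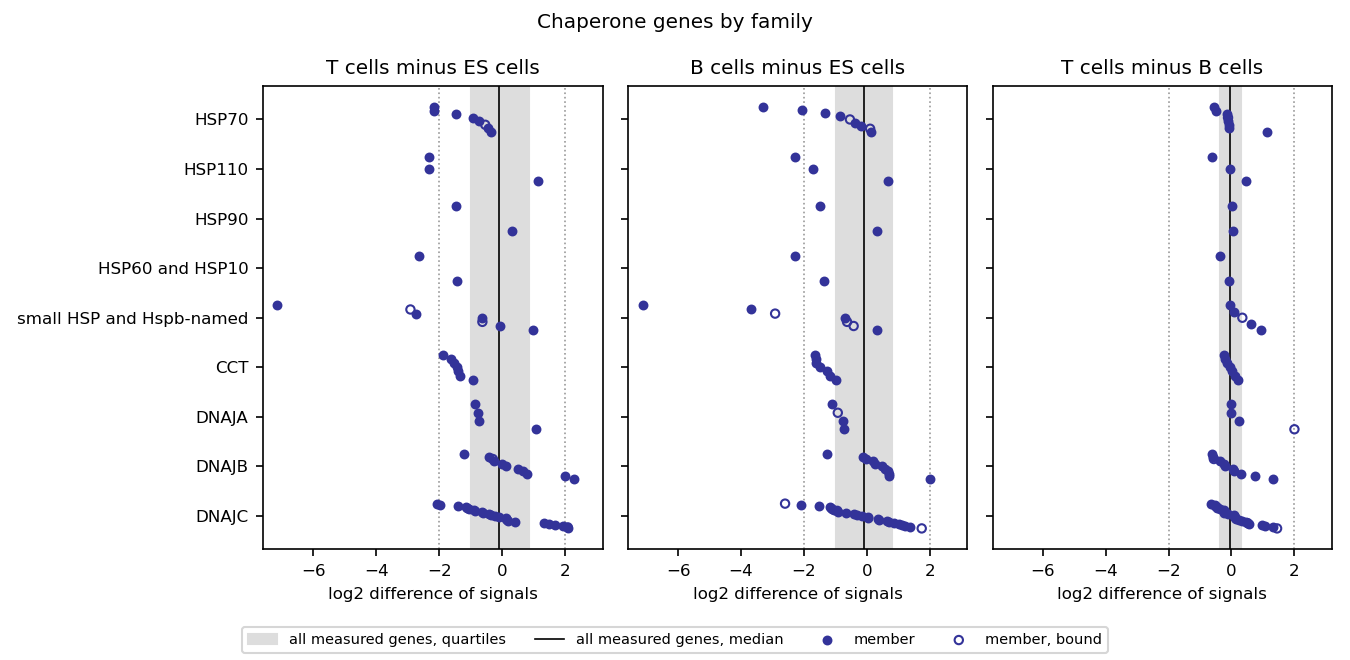
Log2 difference of signals (x axis) for each measured member by family (rows), in T cells minus ES cells, B cells minus ES cells and T cells minus B cells; filled points are measured on both arrays, open points are bounds, the grey band and black line are the quartiles and median of all measured genes, and dotted lines mark 4-fold. The 7 measured CCT genes lie between -1.87 and -0.94 against ES cells, and in T cells minus B cells the members sit close to 0.

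The eukaryotic chaperonin, called CCT or TRiC, is a double ring of 8 different subunits that all have to be made. The rule covers 7 of them, and the eighth, Tcp1, carries another symbol. All 7 were brighter in ES cells. Cct7 had signals of 5649 in T cells, 6716 in B cells and 20605 in ES cells, and was 3.65-fold and 3.07-fold lower in the lymphocytes. Cct3 had 6494 in T cells, 7171 in B cells and 20091 in ES cells, and Cct6a 6958, 6442 and 20088 in the same order. For each of these genes T and B cells lay close together, with ES cells well above both.

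The signals of Cct5 were 7704 in T cells, 8965 in B cells and 20363 in ES cells. Cct8 had 4464, 3895 and 11956, and Cct2 had 10908, 11272 and 27309. Cct4, the member with the smallest difference, had 10707 in T cells, 10532 in B cells and 20536 in ES cells, a 1.92-fold and a 1.95-fold difference. Log2 differences of the 7 ran from -1.87 to -0.94 in T cells minus ES cells (median -1.42) and from -1.64 to -0.96 in B cells minus ES cells (median -1.49). In each comparison 6 of 7 were at least 2-fold lower (85.7%) and 0 reached 4-fold. Of all measured genes, 24.7% were 2-fold and 10.2% were 4-fold lower in T cells against ES cells, and for B cells these shares were 24.6% and 10.3%. Single probe sets differed from this for Cct2 in T cells minus ES cells (0.04). In B cells minus ES cells they did so for Cct3 (0.02) and, most clearly, for Cct4 (0.52). By the brightest probe sets, T cells minus B cells spanned -0.25 to 0.20. Other probe sets went further, among them 0.82 for Cct2, -0.46 for Cct3 and -1.43 for Cct4.

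Tcp1 itself had signals of 5712 in T cells, 7626 in B cells and 21180 in ES cells, so the eighth subunit differed in the same direction as the other 7. The prefoldin complex, which hands actin and tubulin to CCT, had 5 of its 6 genes lower at 2-fold in T cells against ES cells (83.3%, against 24.7% of all measured genes). Its remaining gene, Pfdn5, went the other way, with 10081 in T cells, 11383 in B cells and 4676 in ES cells, and its measured probe sets gave log2 differences of 1.11 to 1.15 in T cells minus ES cells. In B cells minus ES cells 4 prefoldin genes were at least 2-fold lower (66.7%, against 24.6%) and Pfdn5 higher, and Pfdn1, at -2.26 on the log2 scale, was the one called gene. Among the other CCT helpers, Pdcl3 was lower by 0.86 in T cells and by 1.31 in B cells on the log2 scale, while Pdcl differed by 0.17 and 0.07.

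**Figure D2:**
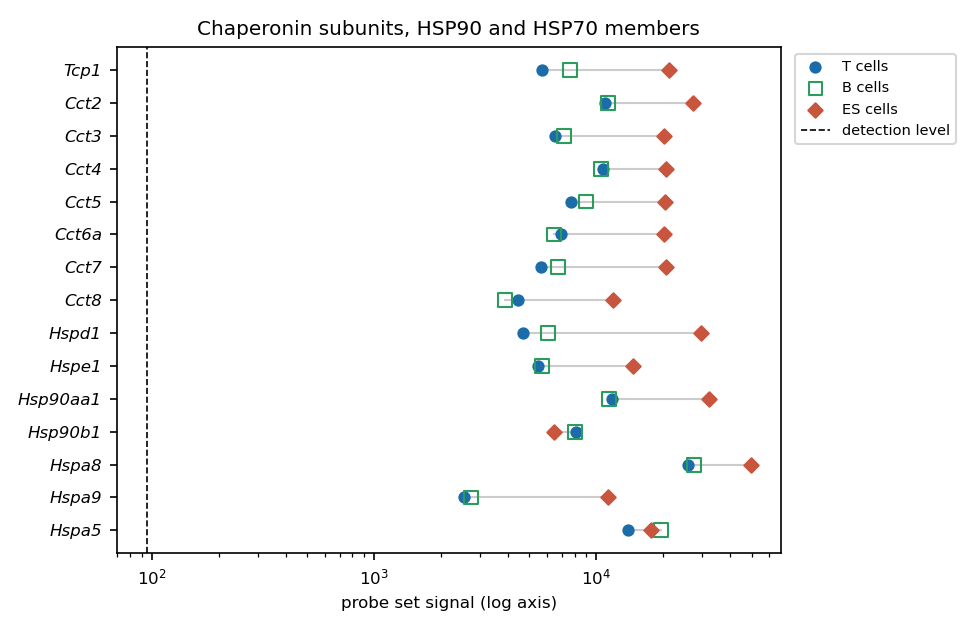
Probe set signal (x axis, log scale) in T cells, B cells and ES cells for Tcp1, the 7 CCT members, mitochondrial Hspd1, Hspe1 and Hspa9, and HSP90 and HSP70 members; the dashed line is the detection level of 95. By the probe sets drawn, ES cells are the highest of the 3 arrays for every gene except Hsp90b1 and Hspa5. Other probe sets of Hspa8 gave -0.86 to 0.50 on the log2 scale in T cells minus ES cells, so no direction is given for it there.

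Mitochondria carry a bacterial type of chaperonin, made of HSP60 (Hspd1) with its lid HSP10 (Hspe1), and an HSP70 of their own, mortalin (Hspa9), which also pulls proteins in through the inner membrane. Hspd1 had signals of 4691 in T cells, 6043 in B cells and 29548 in ES cells, 6.30-fold and 4.89-fold lower in the lymphocytes. Hspe1 had 5466 in T cells, 5713 in B cells and 14633 in ES cells, 2.68-fold and 2.56-fold lower. The neighbours that share the heat shock units shown above thus differed in the same direction, and the difference was greater for Hspd1. The signals of Hspa9 were 2530 in T cells, 2725 in B cells and 11250.0 in ES cells, 4.45-fold and 4.13-fold lower, with all 4 measured probe sets below 0 in both comparisons.

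The other mitochondrial members were J proteins. Dnajc11, which is found with the complex that shapes the inner membrane folds, had 509 in T cells, 737 in B cells and 2121 in ES cells, 4.16-fold lower in T cells and 2.88-fold lower in B cells, though 1 of its probe sets gave 0.38 in B cells minus ES cells on the log2 scale. Dnaja3, also called TID1 and a partner of mortalin, had 845, 855 and 1417. Dnajc15, which sits at the import channel and is known as a brake on respiration, had 3009 in T cells, 1210.0 in B cells and 2267 in ES cells, so that B cells were the lowest. Dnajc30 differed little, with 823, 969 and 746. Over the 7 mitochondrial members the median log2 difference was -1.42 in T cells minus ES cells and -1.36 in B cells minus ES cells. Of 11 further genes of mitochondrial folding and proteolysis, 5 were lower at 2-fold in T cells against ES cells (45.5%, against 24.7% of all measured genes) and 0 higher (against 22.7%), and the protease gene Clpp was the one called, at -2.28 on the log2 scale. In B cells 3 were at least 2-fold lower (27.3%, near the 24.6% of all genes) and 0 higher (against 21.1%).

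The HSP110 proteins are the main exchange factors of cytosolic HSP70. Hsph1, or HSP105, had signals of 1829 in T cells, 1893 in B cells and 9169 in ES cells, 5.01-fold and 4.84-fold lower in the lymphocytes. Hspa4 had 3084 in T cells, 4731 in B cells and 15533 in ES cells, 5.04-fold and 3.28-fold lower, but 1 of its 4 probe sets gave 0.15 in T cells and 0.55 in B cells, each minus ES cells on the log2 scale. The third member, Hspa4l, was brighter in lymphocytes, with 363 in T cells, 263 in B cells and 166 in ES cells, and all 5 of its probe sets were above 0 (0.56 to 1.47 on the log2 scale in T cells minus ES cells). The family therefore split, with Hsph1 and Hspa4 on one side and Hspa4l on the other.

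Among the HSP70 genes, the constitutive Hspa8 had signals of 25907 in T cells, 27512 in B cells and 49659.5 in ES cells, where the highest signal of any probe set on the ES cell array was 51771. Its 4 probe sets disagreed, from -0.94 to 0.50 on the log2 scale in T cells minus ES cells. The brightest is of the _x_at kind, whose probes can match other transcripts, and without probe sets of the _x_at and _s_at kinds Hspa8 gave 0.40 in T cells and -0.60 in B cells, each minus ES cells. No direction is given for it in T cells. The stress-inducible Hspa1b had 221 in T cells, 100 in B cells and 994 in ES cells, 4.50-fold and 9.94-fold lower, and its 3 probe sets were below 0 in both comparisons. Its near-identical neighbour Hspa1a had 84.1 in T cells, 25.2 in B cells and 138 in ES cells, at least 1.45-fold lower in both. Probes may not tell the transcripts of the 2 copies apart, so the values of the pair are uncertain.

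Early response genes, which are raised by stress and by cell isolation, were high in lymphocytes. The 6 listed, Fos, Jun, Egr1, Atf3, Junb and Ier2, summed to 47818 in T cells, 44854 in B cells and 8333 in ES cells, and their part in the values of the stress-inducible members was not tested. Dnajb1, the heat-inducible HSP40 and a partner of Hspa1b, was also somewhat brighter in lymphocytes, with 3259 in T cells, 3060.2 in B cells and 1869 in ES cells, 1.74-fold and 1.64-fold higher, and its other probe set gave 0.32 and 0.13 on the log2 scale. Of the heat shock factors listed, Hsf2 had 100 in T cells, 45.5 in B cells and 191 in ES cells. Hsf1 was not analysed here. The remaining cytosolic HSP70 gene, Hspa2, known for its role in spermatogenesis, had 128 in T cells, 187 in B cells and 215 in ES cells.

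HSP90 was represented by Hsp90aa1, the inducible cytosolic form, and Hsp90b1, the ER form GRP94. Hsp90aa1 had signals of 11729 in T cells, 11434 in B cells and 32098 in ES cells, 2.74-fold and 2.81-fold lower, and its 3 measured probe sets lay between -2.53 and -1.45 in T cells minus ES cells. Hsp90b1 had 8089 in T cells, 8060 in B cells and 6457 in ES cells, 1.25-fold higher in both. Its other probe set gave -0.71 in T cells and -0.58 in B cells, each minus ES cells on the log2 scale. Of 26 measured co-chaperones of HSP70 and HSP90, 11 were lower at 2-fold in T cells against ES cells (42.3%, against 24.7% of all measured genes) and 3 higher (11.5%, against 22.7%), the median log2 difference being -0.55, against -0.11 for all genes. In B cells 11 were lower (42.3%, against 24.6%) and 2 higher (7.69%, against 21.1%), with a median of -0.85, against -0.07. Fkbp4, an immunophilin of steroid receptor complexes, was lower by 2.72 in T cells and by 2.34 in B cells on the log2 scale, though 1 of its probe sets gave 0.12 in T cells. Stip1, which bridges HSP70 and HSP90, was lower by 1.95 and 1.82, and Bag2 by 2.67 and 1.97.

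The Hspb-named genes held the widest difference of all members. Hspb1, whose product HSP27 (HSP25 in the mouse) caps actin filaments and holds unfolded clients, had signals of 130 in T cells, 134 in B cells and 18529 in ES cells. Both lymphocyte arrays were close to the detection level, and the difference was 143-fold and 138-fold. Hspb8, which works with the exchange factor BAG3 in autophagy, had 14.5 in T cells, 30.3 in B cells and 717 in ES cells, at least 7.54-fold lower in both. Its 3 probe sets were below 0 in both comparisons. Cryab, a crystallin of the same family that is not covered by the rule, had 17.1 in T cells, 10 in B cells and 852 in ES cells.

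Other genes share the Hspb letters without being small heat shock proteins. Hspbap1, named for binding Hspb1 protein, had 273 in T cells, 143 in B cells and 1833 in ES cells, 6.71-fold and 12.8-fold lower, with its other measured probe set at -0.78 and -0.40 on the log2 scale. Hspbp1, an exchange factor that removes ADP from HSP70, had 635, 605 and 987. Hspb11, a cilium transport protein also called IFT25, had 1395 in T cells, 901 in B cells and 712 in ES cells. Of the true small heat shock genes, Hspb2 (45.0, 55.0 and 147) and Hspb6 (121, 83.0 and 127) stayed near the detection level on every array. Hspb1, Hspb8 and Cryab were high on the array on which the fibroblast markers were high, and the share of feeder cells in their signal was not tested.

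**Figure D3:**
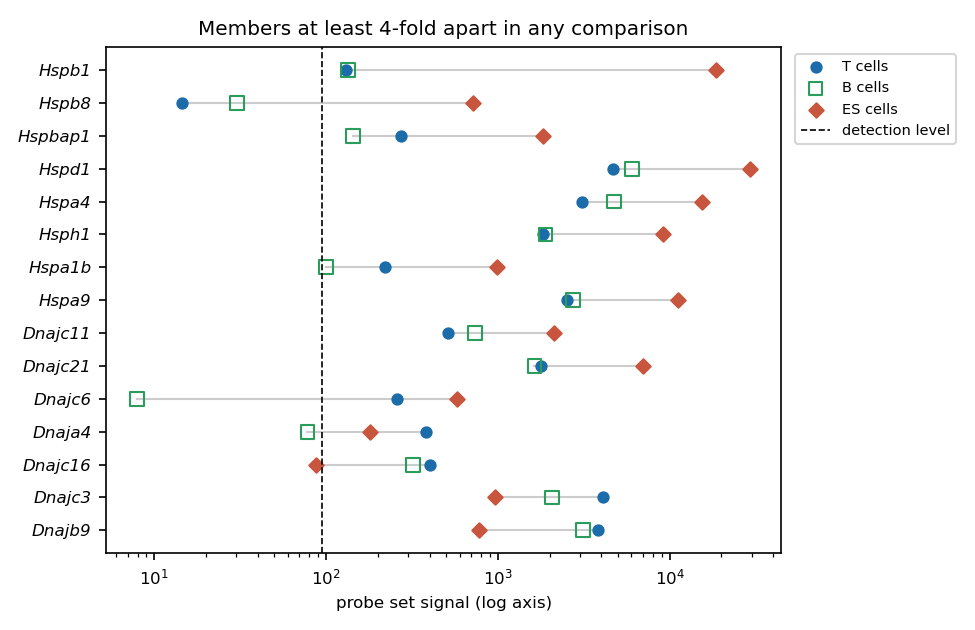
Probe set signal (x axis, log scale) in T cells, B cells and ES cells for the 15 members called at 4-fold in any comparison, ordered by the difference of T cells and ES cells; the dashed line is the detection level of 95. For 7 members ES cells lie at least 4-fold above both lymphocyte arrays, and for Dnajb9 they lie at least 4-fold below both.

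J proteins select the client and the place of HSP70 action. There were 44 of them. Of the 10 assigned to the ER, 5 were higher at 2-fold in T cells against ES cells (50%, against 22.7% of all measured genes) and 0 lower (against 24.7%). Of these Dnajc16 was below the detection level in ES cells, and over the 9 above it on both arrays 4 were higher and the median log2 difference was 0.66, against -0.06 for all such genes. In B cells against ES cells, 4 ER J proteins were higher at 2-fold (40%, against 21.1%) and 1 lower (10%, against 24.6%), and over the 9 above the level on both arrays 3 were higher and the median was 0.50, against -0.03. Of the other 34 J proteins 30 were measured, and in T cells against ES cells 4 were higher at 2-fold (13.3%) and 7 lower (23.3%, near the share of all genes), with a median of -0.32. In B cells 2 of these were higher (6.67%) and 8 lower (26.7%, near the share of all genes), with a median of -0.28. The sites were assigned from textbook knowledge with the values known, so this grouping is a description. Dnajc25 was left without a site and counted among the other 34, at -0.34 in T cells and 0.04 in B cells, each minus ES cells. If placed in the ER, it would not be among the members higher at 2-fold.

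Dnajb9, or ERdj4, a J protein of the ER lumen that is raised by unfolded proteins, had signals of 3844 in T cells, 3127 in B cells and 781 in ES cells, 4.92-fold and 4-fold higher. It was the one member at least 4-fold higher in both lymphocyte arrays, by a single probe set. Dnajc3, the lumenal co-chaperone P58IPK, had 4096 in T cells, 2077 in B cells and 959 in ES cells, 4.27-fold and 2.16-fold higher, and all 5 of its probe sets were above 0. Dnajc1, which contacts the ribosome at the ER membrane, had 1229 in T cells, 585 in B cells and 378 in ES cells, and T cells were the highest. Dnajc14 had 1567, 1450 and 622, in the same order of arrays. For Dnajc16, 405 in T cells, 319 in B cells and 87.0 in ES cells made a difference of at least 4.26-fold and 3.36-fold, but its other probe set gave -0.55 in T cells and -0.69 in B cells on the log2 scale.

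Other ER chaperones differed less between the arrays. Hspa5, the central ER HSP70 known as BiP, had 13958 in T cells, 19545 in B cells and 17624 in ES cells. By this probe set it lay within 1.40-fold between any of the arrays. On the log2 scale it gave -0.34 in T cells minus ES cells, where its other probe sets gave 0.54 and 0.23. Dnajb11, a cofactor of BiP, had 1913, 2470.3 and 1749, and Dnajc10, a disulfide reductase, had 1677, 1583 and 1974. Hspa13 had 751 in T cells, 797 in B cells and 1024 in ES cells. Dnajc18 had 317, 268 and 576, with another of its probe sets at 0.26 and 0.47 on the log2 scale. Dnajb12 (256, 391 and 337) and Dnajb14 (245, 144 and 155), both of the ER membrane, lay within 2-fold. Over the 13 ER members the median log2 difference was 0.33 in T cells and 0.32 in B cells, each minus ES cells, and scaling the arrays to a common 75th percentile turned these to -0.05 and -0.03. Relative to the median of all genes the ER median stayed positive with that scaling, at 0.36 and 0.34. With the deposited scaling the ER median was in both comparisons the value of Hsp90b1. The other probe set of Hsp90b1 gave -0.71 in T cells and -0.58 in B cells, each minus ES cells.

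Of the 22 measured genes in the list of ER folding and unfolded protein response, 4 were higher at 2-fold in T cells against ES cells (18.2%, against 22.7% of all measured genes) and 2 lower (9.09%, against 24.7%), the median being -0.04. In B cells 8 were higher (36.4%, against 21.1%) and 1 lower (4.55%, against 24.6%), the median being 0.61. Herpud1, a component of ER-associated degradation, was higher than in ES cells by 2.98 in T cells and by 3.73 in B cells on the log2 scale, and Serp1 by 0.68 and 2.34. Between T cells and B cells, 4 genes of the list were lower at 2-fold in T cells (18.2%, against 6.32% of genes) and 0 higher (against 8.89%). Those were Pdia4 (-1.81), Atf6 (-1.90), Serp1 (-1.66) and the ER stress kinase gene Eif2ak3 (-1.47). In the same comparison the ER J proteins Dnajc1 and Dnajc3 were higher in T cells, by 1.07 and 0.98. Of the 10 ER J proteins, 8 were higher and 2 lower, with a median of 0.27. Those lower were Dnajb12 (-0.61) and Dnajb11 (-0.37). At 2-fold 1 was higher (10%, near the 8.89% of all genes).

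**Figure D4:**
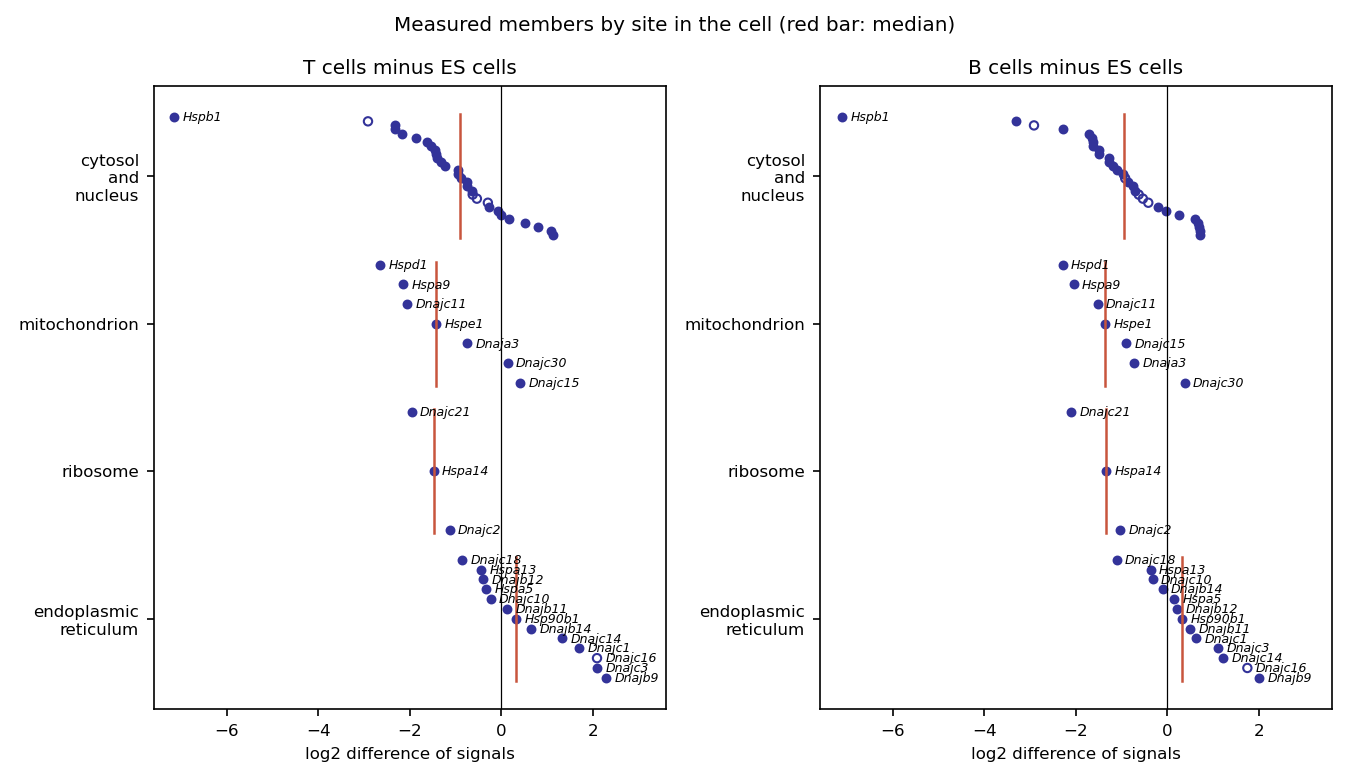
Log2 difference of signals (x axis) in T cells minus ES cells and B cells minus ES cells for measured members grouped by site in the cell; filled points are measured on both arrays, open points are bounds and red bars are medians. Medians are -0.91 and -0.94 for cytosol and nucleus, -1.42 and -1.36 for mitochondrion, -1.48 and -1.33 for ribosome, and 0.33 and 0.32 for endoplasmic reticulum. Members assigned no site are not drawn.

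At the ribosome, Dnajc2 and Hspa14 form the complex that meets the growing chain, and Dnajc21 acts in assembly of the large subunit. All 3 were lower in lymphocytes. Dnajc21 had 1793 in T cells, 1633 in B cells and 6984 in ES cells, 3.90-fold and 4.28-fold lower, the second of which is past the 4-fold rule. Hspa14 had 1835, 2035 and 5119, although 1 of its 2 measured probe sets gave 0.60 in T cells minus ES cells. Dnajc2 had 1960, 2092 and 4283, in the same order, and its 3 measured probe sets were below 0.

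Dnaja1, Dnaja2 and Dnajb6 serve cytosolic HSC70. Dnaja1 had 7998 in T cells, 6792 in B cells and 14672 in ES cells. Another probe set of Dnaja1 gave 0.16 in T cells minus ES cells and 1.09 in T cells minus B cells on the log2 scale. Dnaja2 had 7881, 7933 and 13344, with probe sets from -1.31 to 1.48 in T cells minus ES cells. Dnajb6, a suppressor of aggregation whose heat shock units are shown above, had 3647 in T cells, 3524 in B cells and 8509 in ES cells. It was 2.33-fold and 2.41-fold lower, with 1 of its 4 probe sets at 0.59 and 0.77. Dnaja4 had 381 in T cells, 77.9 in B cells and 180 in ES cells. It was the one member called between T cells and B cells, where T cells were higher by at least 4.01-fold, and its other 2 probe sets gave 1.03 and 1.61 on the log2 scale.

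Other J proteins are tied to particular machines. Dnajc6, or auxilin, which strips clathrin from vesicles, had 260 in T cells, 7.9 in B cells and 576 in ES cells, and was lower in B cells by at least 6.06-fold against ES cells. Of its 4 probe sets 1 was above the detection level. Dnajb13, of the sperm axoneme, had 430 in T cells, 171 in B cells and 108 in ES cells. Dnajc17, a splicing factor, had 6719, 4532 and 1744, while its other measured probe set gave 0.06 in T cells and -0.11 in B cells, each minus ES cells on the log2 scale. Dnajc4 had 843 in T cells, 609 in B cells and 302 in ES cells. Dnajc9, which carries histones, had 3119, 4918 and 2721, and Dnajc7, which binds both HSP70 and HSP90, had 6210.1, 8994 and 5531. For both, B cells were the highest array.

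Lower in lymphocytes at 2-fold were also Dnajc12, a co-chaperone of aromatic amino acid hydroxylases (252 in T cells, 295 in B cells and 663 in ES cells), and Dnajc24, which serves the synthesis of diphthamide (399, 375 and 819). The other probe set of Dnajc24 gave 0.05 in T cells and -0.39 in B cells, each minus ES cells on the log2 scale. By the brightest probe set, Dnajb2, Dnajb4, Dnajb5, Dnajc5, Dnajc8 and Dnajc13 were among the J proteins within 2-fold of ES cells in both lymphocyte populations. Other probe sets went past 2-fold for some of them. In B cells minus ES cells these gave 1.17 for Dnajb5, 1.10 for Dnajc13 and 1.04 for Dnajc5. The same probe set of Dnajc5 gave 1.28 in T cells minus ES cells. There, quantile normalization moved Dnajc5 from -0.10 to 0.85.

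**Figure D5:**
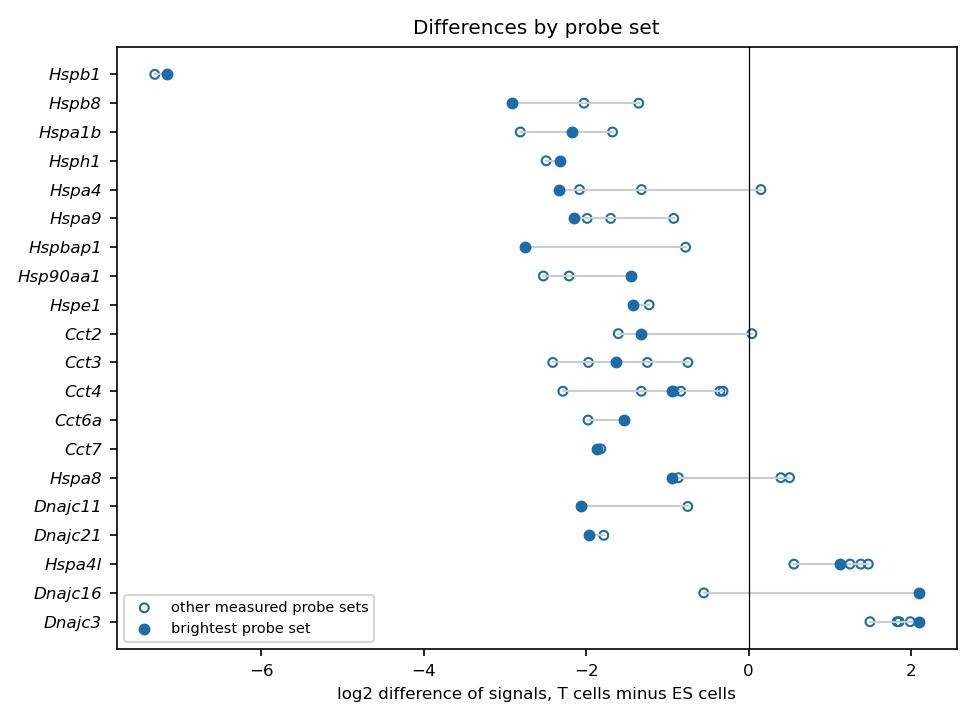
Log2 difference of T cells minus ES cells (x axis) by probe set for 20 members with 2 or more measured probe sets; filled points are the brightest probe set of a gene and open points its others. All measured probe sets of Hspb1, Hspa1b, Hsph1, Hsp90aa1 and Hspe1 lie below 0 and those of Dnajc3 and Hspa4l above it, while Hspa8, Hspa4, Cct2 and Dnajc16 have probe sets on both sides.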

How the data were processed

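RNA of 3 mouse cell populations was measured on Affymetrix 3' arrays, 1 array each. The authors deposited intensity values on a linear scale, 45037 probe sets an array, made with Affymetrix Expression Console per the submitters' processing notes, which give neither a version nor a summarization algorithm. Column means trimmed by 2% were 498 in T cells, 498 in B cells and 497 in ES cells, so a general difference in mRNA per cell would not be visible.

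Probe sets were named through the array's GEO annotation. Of them 34945 had 1 symbol, 932 several and 9160 none, and the last 2 kinds were left out. All 81 member Entrez IDs were found in the RefSeq table of GRCm38.p6 and 0 symbols changed. Hsp90ab1 and Dnajc19 are not analysed here. Each probe set was compared with itself across arrays, never with another probe set. Differences were taken on the log2 scale after the floor of 95 and were checked on simulated data. Values in every array are given for called members, for the 3 members per family with the greatest differences, for all measured CCT, HSP90, HSP60, HSP10 and HSP110 members, and for chosen HSP70, small heat shock and J protein genes. J proteins and HSP70 members beyond that rule were named after their values were seen. Members, lists and alternatives were chosen with earlier results of these data known. Python 3.11.15, numpy 2.4.6 and pandas 2.3.3 were used.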

Additional observations from a re-analysis of the deposited data

Results flagged for a closer look

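Dnaja4, a J protein of cytosolic HSP70, differed from ES cells in opposite directions in the lymphocyte populations, with a signal of 381 in T cells, 77.9 in B cells and 180 in ES cells. The log2 difference was 1.08 in T cells minus ES cells and -0.92 in B cells minus ES cells, which puts T cells above B cells by 2.00. As B cells were below the detection level, that gap is a minimum, and with 1 array each the difference was not tested.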

How the results depend on the processing

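With the deposited scaling and the 4-fold rule, 3 members were higher and 9 lower in T cells against ES cells, 1 and 9 in B cells against ES cells, and 1 and 0 in T cells against B cells, and ES cells were above both others for 7. A detection level at the 65th percentile gave 0 members higher in T cells against B cells. Adding 16 without a floor gave 0 higher in B cells against ES cells and 3 higher in T cells against B cells. Quantile normalization gave 0 higher in each of these 2 comparisons. Scaling to the 75th percentile gave 0 higher in all 3 comparisons, beside 12 lower in T cells and 10 lower in B cells against ES cells. The mean of all probe sets gave 1 higher and 5 lower in T cells against ES cells, 4 lower in B cells against ES cells, 0 higher in T cells against B cells, and 4 with ES cells above both others. Requiring every probe set to pass gave 1 (Dnajb9) and 3 (Hspb1, Hspd1 and Hsph1) in T cells against ES cells, 4 lower in B cells against ES cells (those 3 and Hspa1b), 0 higher in T cells against B cells, and 3 with ES cells above both others. Dnajb9 and Hspd1 have only 1 probe set each, so for them this requirement adds nothing. A probe set below the detection level on both arrays counted as not passing. At 2-fold the counts were 10 higher and 24 lower in T cells and 6 higher and 26 lower in B cells, each against ES cells, 6 higher in T cells against B cells, and 24 with ES cells above both others. Shares over all genes are given above for the 4-fold rule and for the 2-fold comparisons between arrays only. The other counts show how calls move with the processing, not how members stand against all genes. Requiring every probe set to pass can only remove calls, and a higher detection level can only shrink differences. Apart from these, the scaling and the changed fold, where the construction moves the count, the cause of the shifts was not tested. Requiring a digit after the family letters kept every count within 1.5 times. So did leaving out probe sets of the _x_at and _s_at kinds, an alternative chosen after seeing the data, although Hspa8 then changed sign in T cells against ES cells. Dnajb9 in B cells and Dnaja4 in T cells against B cells sit at the 4-fold limit. No paired analysis was possible because each population had 1 array. Signals near the detection level, such as those of Hspb1 in lymphocytes, limit how well a fold can be read.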
